A study of Homo sapiens with 3 samples.

Results

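A set of 50 regulators of the cell cycle was followed in pNPCs (primitive neural progenitor cells), which renew themselves at an early neural stage and here came from H1, an established human embryonic stem cell line. The set holds cyclins, cyclin-dependent kinases (CDKs), CDK inhibitors, the RB and E2F families and the factors that switch mitotic CDK activity on and off. They were taken by gene symbol, and all 50 were found once among the 62754 genes of the files. By their labels the 3 replicates are wild type and form the only group. All replicates grew in N2 and B27-RA medium with FGF2, the GSK3 inhibitor CHIR99021, LIF, the TGF-beta receptor inhibitor SB431542 and the ROCK inhibitor Y-27632, and polyadenylated RNA was sequenced. Nothing in the labels tells whether they were separate cultures, so spread and p-values describe these libraries, whose differences may be technical. The comparisons are therefore between genes within a library and between the 3 libraries.

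Cells enter the cycle when D cyclins with CDK4 or CDK6 begin to phosphorylate the RB proteins, which otherwise hold E2F factors in check on promoters. Cyclin E and cyclin A with CDK2 carry the cell through S phase, and cyclin B with CDK1 drives mitosis until the anaphase-promoting complex, with CDC20 or FZR1, has cyclin B and securin destroyed. INK4 proteins (CDKN2A to CDKN2D) block CDK4 and CDK6, and CDKN1B (p27) acts mainly on CDK2 complexes. In neural progenitors of the mouse, G1 lengthens as divisions turn from proliferative to neurogenic.

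Library totals ranged between 30038114 and 38400092 expected counts. Replicate 1 stood apart, with a chi-square per degree of freedom of 82.4 and 82.5 against replicates 2 and 3, and of 19.4 between those 2. Of 10 neural progenitor markers, 8 had a TPM of at least 1 in all 3 libraries, as did 62.2% of protein-coding genes, so this count alone does not establish the label. Among them were VIM at 1912 ± 194 TPM (SD, n = 3), NES at 181 ± 21.1 TPM and FABP7 at 103 ± 31.3 TPM. PAX6, at 0.44 ± 0.34 TPM, and HES5, at 6.76, 0.72 and 5.66 TPM in replicates 1, 2 and 3, did not reach that level. All 10 neuron markers and all 10 mesenchyme markers reached it. Of 7 pluripotency markers 3 did, namely LIN28A at 326 ± 117, DNMT3B at 59.7 ± 3.39 and DPPA4 at 22.0 ± 3.97 TPM (SD, n = 3). GDF3 and ZFP42 were among those that did not. Summed levels differed between libraries, with 1112, 695 and 628 TPM for the neuron list and 712, 1469 and 1049 TPM for the mesenchyme list in replicates 1, 2 and 3. The neuron sum was led by TUBB3 and NEFM, at 478 and 485 TPM in replicate 1. Medians over the genes were 13.3, 5.33 and 7.72 TPM for the neuron list and 62.5, 89.2 and 58.8 TPM for the mesenchyme list. The order of libraries by median thus differed from that by sum in both lists. The cultures thus did not carry progenitor markers alone. In bulk RNA, fewer cells of a type and less RNA per cell cannot be told apart. TPM is a level scaled within a library for transcript length, and a gene is called detected here at a TPM of at least 1 in all 3 libraries.

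Detection covered 48 of the 50 regulators, against 62.2% of protein-coding genes and 23% of all genes. Their mean TPM ran from 0.12 for CCNA1 to 474 for CKS1B with a median of 36.0. Of the 50 genes, 44 lay above the middle of the protein-coding genes, and 11 lay in the top 10% of them. The 7 regulators above 200 TPM were CKS1B, CDK4, CCNB1, PTTG1, CKS2, CDC20 and CCNG1. At the other end, 6 stood below 5 TPM, namely CCNA1, CCNB3, E2F8 and 3 of the 4 INK4 genes.

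**Figure D1:**
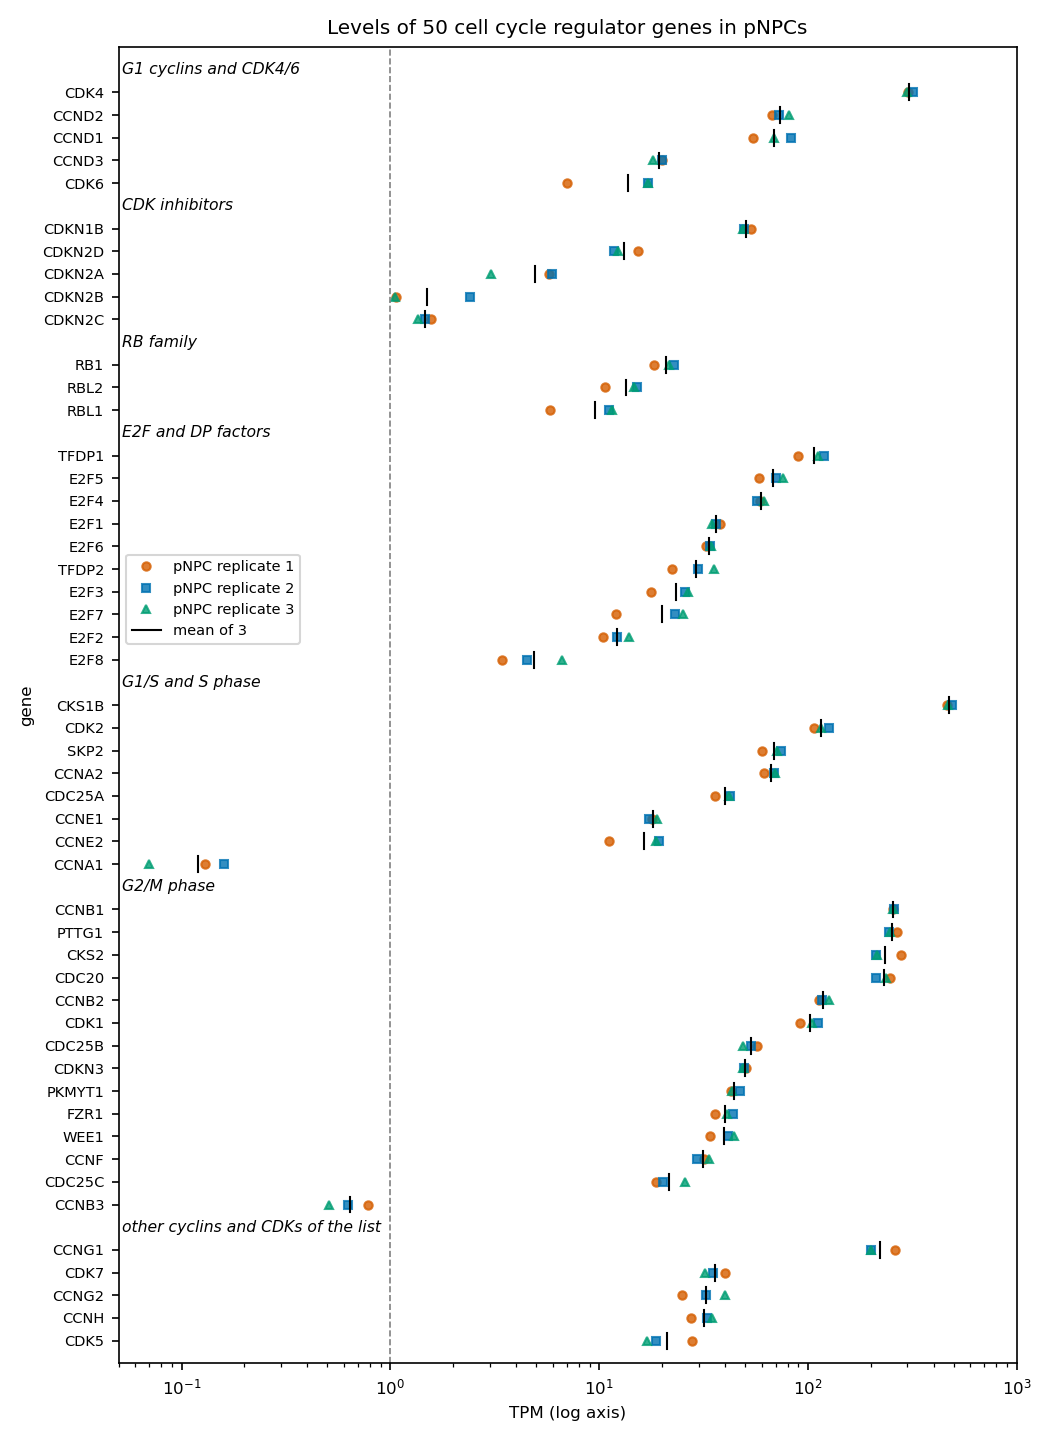
TPM on a log axis of each of the 50 regulators, grouped by role, with 1 symbol for each pNPC replicate, a black tick at the mean of the 3 and a dashed line at the detection level of 1 TPM. CKS1B, CDK4 and CCNB1 lie furthest to the right, and the 2 undetected genes, CCNA1 and CCNB3, lie left of the line in every library.

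Among the G1 regulators, 2 D cyclins had near-equal TPM and CDK4 far outweighed CDK6. CCND2 (ENSG00000118971.9, chromosome 12, 4273762 to 4305353, GRCh38) had 67.5, 72.9 and 81.4 TPM in replicates 1, 2 and 3. CCND1 (ENSG00000110092.4, chromosome 11, 69641156 to 69654474) had 54.7, 82.6 and 68.6 TPM. CCND1 was thus the lower of the pair in replicates 1 and 3 and the higher in replicate 2, and their difference, -0.12 ± 0.26 on the log2(TPM + 1) scale, was smaller than its spread. CCND3, the third D cyclin, had 20.0, 20.1 and 18.0 TPM and lay below both in every library. As shares of the summed D cyclin TPM, CCND2 took 45.8 ± 3.78%, CCND1 42.1 ± 4.44% and CCND3 12.1 ± 1.74% (SD, n = 3). The near-equal levels of CCND1 and CCND2 depend on length scaling, since per read CCND2 was the higher in every library and took 62.4%, 56.6% and 65.1% of D cyclin reads, against 32.7%, 39.4% and 31.3% for CCND1.

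CDK4 (ENSG00000135446.17, chromosome 12, 57747727 to 57752310) had 303, 319 and 297 TPM in replicates 1, 2 and 3, and CDK6 (ENSG00000105810.10, chromosome 7, 92604921 to 92836573) had 7.05, 17.2 and 17.1 TPM. The ranges were far apart, and within a library CDK4 stood 42.9, 18.6 and 17.4 times as high as CDK6. Replicate 1 was the low library for CDK6, while CDK4 varied by a coefficient of variation of only 3.68%. CDK6 has a mean transcript length of 11379 bases, the longest of the set, against 1503 for CDK4, so the size of this ratio rests on length scaling. Counted per read, without that scaling, CDK4 took 82.1%, 68.8% and 66.5% of the reads of the pair in replicates 1, 2 and 3.

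**Figure D2:**
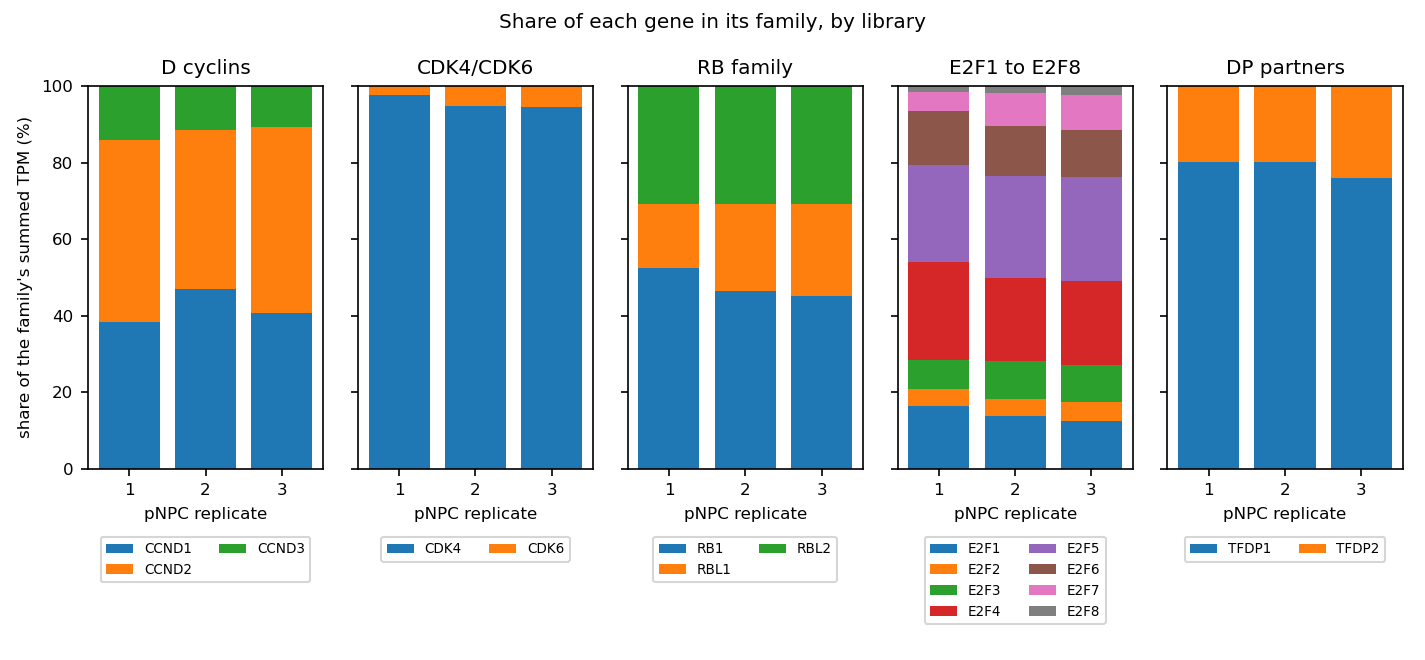
Stacked bars give the share of each gene in the summed TPM of its family, in percent, for pNPC replicates 1, 2 and 3. CCND1 and CCND2 fill most of the D cyclin bars, CDK4 takes at least 94.6% of its pair, and E2F4 with E2F5 takes 48.4% to 50.8% of the E2F bars.

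The inhibitors were uneven. CDKN1B (ENSG00000111276.12, chromosome 12, 12717368 to 12722369), which encodes p27, had 53.4, 49.6 and 48.8 TPM in replicates 1, 2 and 3 and made up 70.7 ± 2.24% of the TPM of the 5 inhibitors. That share holds among these 5 only, since inhibitors outside the set, such as CDKN1A and CDKN1C, were not examined. CDKN2D (p19), the highest of the INK4 genes, followed at 15.4, 11.8 and 12.4 TPM. CDKN2C (p18) stood at 1.57, 1.47 and 1.36 TPM, and differed from CDKN2D by -2.52 ± 0.15 log2 units in the same libraries. Its detection rested on 60, 52 and 51 expected counts.

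The CDKN2A and CDKN2B genes lie next to each other on chromosome 9 and encode the INK4 inhibitors p16 and p15. CDKN2A (ENSG00000147889.18, chromosome 9, 21967752 to 21995324) had 5.74, 5.98 and 3.05 TPM and CDKN2B had 1.06, 2.40 and 1.05 TPM in replicates 1, 2 and 3. In TPM, CDKN2A was higher in all 3 libraries. Per read, CDKN2B was the higher in replicates 2 and 3, at 3.72 and 1.60 CPM against 2.84 and 1.23, and the lower in replicate 1, at 2.02 against 3.23. Replicate 3 was the low library of CDKN2A, with 36.9 expected counts, against 112 and 109 in replicates 1 and 2. The CDKN2A locus also encodes p14ARF, an activator of p53, from another first exon, and a gene-level value joins both transcripts. Together the 4 INK4 genes reached 23.8, 21.7 and 17.8 TPM. The summed TPM of their target kinases CDK4 and CDK6 was 13.0, 15.5 and 17.7 times as high, and without length scaling the ratios were 18.4, 25.8 and 32.1.

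All 3 RB family genes were detected, in the same order in each library. RB1 (ENSG00000139687.16, chromosome 13, 48303751 to 48481890) had 18.2, 22.9 and 21.6 TPM in replicates 1, 2 and 3. RBL2 (p130), which in quiescent cells partners E2F4, had 10.7, 15.2 and 14.7 TPM, and RBL1 (p107) had 5.85, 11.2 and 11.6 TPM. Replicate 1 was lowest for all 3 genes. RB1 exceeded RBL2 by 0.60 ± 0.11 and RBL1 by 1.10 ± 0.34 log2 units (n = 3), and it made up 48.0 ± 3.93% of the family's TPM.

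Of the E2F genes, E2F4 and E2F5, known mainly as repressors that work with RB proteins, had the highest TPM, an order that rests on length scaling. E2F5 had 58.3, 70.2 and 75.8 TPM and E2F4 had 59.3, 57.4 and 61.4 TPM in replicates 1, 2 and 3. Their order turned between libraries, with E2F4 the higher in replicate 1 by 0.02 log2 units and E2F5 the higher in the others. Together they took 49.5 ± 1.17% of the summed E2F TPM, but only 34.6%, 28.6% and 28.7% of the E2F reads in replicates 1, 2 and 3.

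The activators E2F1 to E2F3, which switch on S phase genes, took 27.9 ± 0.78% of the TPM and 39.4%, 39.7% and 38.9% of the reads, so per read they exceeded E2F4 and E2F5 in every library. E2F1 (ENSG00000101412.13, chromosome 20, 33675477 to 33686385) led them with 37.8, 36.1 and 34.8 TPM, E2F3 had 17.8, 25.7 and 26.7 TPM and E2F2 had 10.5, 12.1 and 13.9 TPM. E2F1 exceeded E2F3 by 1.04, 0.47 and 0.37 log2 units in replicates 1, 2 and 3. Per read, with no length scaling, the mean difference of that pair was -0.23, so the order of E2F1 and E2F3 depends on the length of E2F3, whose mean is 4755 bases against 2690.

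E2F6, a repressor that does not bind RB proteins, varied little, with 32.5, 34.1 and 34.3 TPM. The atypical repressors E2F7 and E2F8, which curb E2F targets late in S phase, were lower in TPM and less even. E2F7 had 12.0, 23.2 and 25.2 TPM and E2F8 had 3.42, 4.51 and 6.66 TPM in replicates 1, 2 and 3, both with replicate 1 lowest. E2F7 exceeded E2F8 by 1.82 ± 0.29 log2 units. E2F7 has a mean length of 5341 bases, and per read its mean of 70.3 CPM was above that of E2F6, 52.4 CPM, and of E2F4, 67.0 CPM. The DP proteins, with which E2F1 to E2F6 must pair to bind DNA, were uneven too. TFDP1 had 90.2, 119 and 112 TPM and TFDP2 had 22.3, 29.7 and 35.5 TPM, and TFDP1 took 78.7 ± 2.43% of the pair.

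At the G1/S step, the 2 cyclin E genes were present at similar levels. CCNE1 had 17.9, 17.3 and 19.0 TPM and CCNE2 had 11.2, 19.3 and 18.7 TPM in replicates 1, 2 and 3. CCNE1 minus CCNE2 was 0.63, -0.15 and 0.02 log2 units in these libraries. The difference, 0.17 ± 0.41, was within its spread and turned to -0.066 without replicate 1. D cyclin RNA, summed, was 4.72 ± 0.23 times cyclin E RNA on the TPM scale, and 13.2, 11.9 and 11.4 times per read in replicates 1, 2 and 3.

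CDK2, their partner, had 107, 126 and 115 TPM, and CDC25A, the phosphatase that activates it, had 36.1, 42.5 and 41.7 TPM. CKS1B, the accessory protein with which SKP2 marks p27 for destruction, was the highest gene of the set at 465, 489 and 469 TPM. The mean of CKS1B was 474 ± 12.8 TPM (SD, n = 3), a small spread for its level in TPM. Per read it had 195, 178 and 168 CPM in replicates 1, 2 and 3. SKP2, the F-box protein of that ligase, had 60.2, 74.7 and 71.3 TPM. A processed copy of CKS1B, CKS1BP3, was assigned 6.47, 15.9 and 19.1 TPM, and reads of such near-identical copies cannot be divided with certainty.

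Cyclin A came from CCNA2, the somatic gene, at 61.7, 69.1 and 69.5 TPM in replicates 1, 2 and 3. CCNA1, known for its role in the male germ line, was listed at 0.13, 0.16 and 0.07 TPM. Those levels stand for 5, 6 and 2 expected counts, with exact Poisson 95% intervals of 1.62 to 11.7, 2.20 to 13.1 and 0.24 to 7.22, which cover counting error only. CCNA2 exceeded CCNA1 by 5.92 ± 0.12 log2 units, and that value depends on the pseudocount, since it was 8.27 with a pseudocount of 0.1.

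Of the 7 role groups, the 14 genes of G2 and mitosis had the lowest median coefficient of variation of TPM between libraries, 7.57%, and 13 of them were detected. This rank depends on the unit. In log2 CPM, the median size of a library's difference from the mean of the others was 0.20, 0.14 and 0.14 in replicates 1, 2 and 3. For the G1/S genes tested it was smaller, at 0.07, 0.11 and 0.07. CCNB1 (ENSG00000134057.15, chromosome 5, 69167150 to 69178245), the main mitotic cyclin, had 255, 257 and 256 TPM, and CCNB2 had 113, 117 and 126 TPM in replicates 1, 2 and 3. The coefficient of variation of CCNB1 in TPM was 0.57%, the lowest of the 50 genes. This steadiness rests on length scaling, since per read CCNB1 had 253, 226 and 221 CPM in replicates 1, 2 and 3. CCNB1 exceeded CCNB2 by 1.10 ± 0.08 log2 units. CDK1 (ENSG00000170312.17, chromosome 10, 60778331 to 60794852), their kinase, had 91.3, 112 and 105 TPM, below CDK2 in each library, with log2 differences of -0.23, -0.17 and -0.13. Without length scaling the mean difference kept its sign.

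CCNB3, a cyclin best known from meiosis, was not detected at 0.78, 0.63 and 0.51 TPM. Its 26, 56 and 33 expected counts follow another order than its TPM, because the length RSEM assigned to it was 1524, 3689 and 3471 bases in replicates 1, 2 and 3. That 2.42-fold difference in length was the largest of the 50 genes, and no order of libraries can be read for CCNB3.

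The kinases that hold CDK1 inactive were balanced. WEE1 had 33.9, 41.2 and 44.2 TPM and PKMYT1, its membrane-bound relative, had 42.7, 47.6 and 43.2 TPM in replicates 1, 2 and 3. PKMYT1 was higher in replicates 1 and 2 and WEE1 in replicate 3, and the difference of -0.16 ± 0.18 log2 units was smaller than its spread. Per read, WEE1 was the higher by 0.92.

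The CDC25 phosphatases, which lift that block, stood in 1 order in every library. CDC25B led with 57.0, 53.6 and 48.9 TPM, CDC25A followed, and CDC25C had 18.7, 20.3 and 25.7 TPM. CDC25B took 46.4 ± 4.47% of the summed CDC25 TPM. It exceeded CDC25C by 1.27 ± 0.34 log2 units, and CDC25A differed from it by -0.40 ± 0.22.

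Of the 2 activators of the anaphase-promoting complex, CDC20, which acts in mitosis, had 246, 212 and 237 TPM, and FZR1 (CDH1), which acts from mitotic exit through G1, had 36.0, 43.7 and 40.9 TPM. CDC20 was 6.84, 4.86 and 5.79 times as high in replicates 1, 2 and 3. PTTG1 (securin), a substrate of both, had 268, 244 and 248 TPM. CKS2, the second CKS gene, had 278, 212 and 215 TPM, with replicate 1 above the others. CCNF, a cyclin that serves as an F-box protein, stood at 31.6 ± 1.96 TPM and the CDK-binding phosphatase CDKN3 at 49.7 ± 1.00 TPM (SD, n = 3).

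Outside the core cycle, CCNG1, a cyclin induced by p53, had 262, 202 and 202 TPM, and its relative CCNG2 had 24.9, 32.4 and 40.3 TPM in replicates 1, 2 and 3. In TPM, replicate 1 was the high library for CCNG1 and the low one for CCNG2. For CCNG2 this order rests on the length RSEM assigned, 2825, 2372 and 2294 bases, since its levels were 47.6, 46.5 and 55.2 CPM. CCNG1 was higher by 2.75 ± 0.54 log2 units. CDK7 and its partner CCNH, which activate other CDKs and act in transcription, stood at 35.9 ± 3.99 and 31.8 ± 3.88 TPM. CDK5, a CDK that works mostly in postmitotic neurons, had 27.8, 18.8 and 16.9 TPM. Its high library, replicate 1, was also the library with the highest summed neuron marker level (1112 TPM, against 695 and 628), a sum led by TUBB3 and NEFM. The part of neurons in the CDK5 level was not tested.

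**Figure D3:**
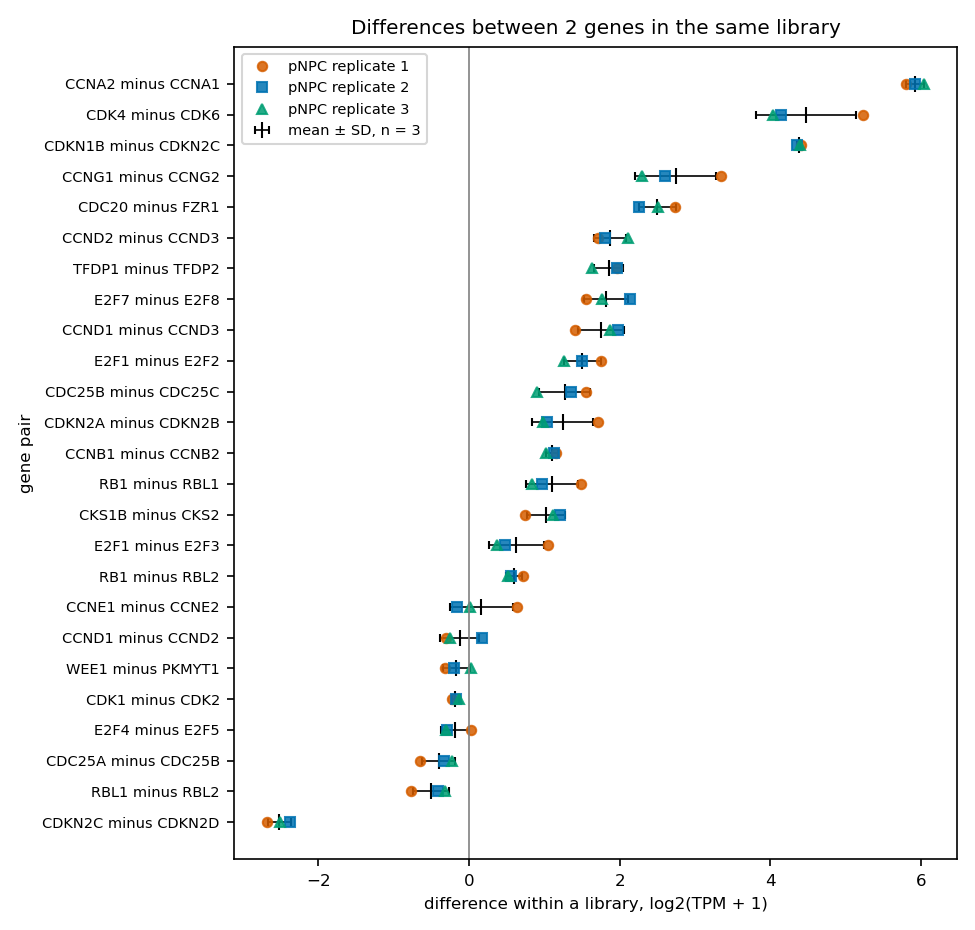
Difference on the log2(TPM + 1) scale between the first and the second gene of 25 pairs within the same library, with 1 symbol for each pNPC replicate and a black tick and bar for the mean ± SD (n = 3). In 21 pairs all symbols lie on the same side of 0, while CCND1 with CCND2, CCNE1 with CCNE2, WEE1 with PKMYT1 and E2F4 with E2F5 straddle it.

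In all, 25 pairs of genes were compared within libraries. The sign was the same in all 3 libraries for 21 of them, and for each of those the two-sided exact test by sign-flip permutation reached its floor at n = 3, p = 0.25, so no pair could reach a threshold of 0.05 before or after adjustment. The SD of the difference exceeded its mean in 3 pairs, namely CCND1 with CCND2, CCNE1 with CCNE2 and WEE1 with PKMYT1.

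Between libraries the regulators varied about as other genes did. The median coefficient of variation of TPM was 11.1% over the 48 detected regulators, against 13.7% over detected protein-coding genes. In edgeR, an intercept-only negative binomial fit compared the spread of each gene with that of genes of like abundance. None of the 49 regulators tested (0) passed at a Benjamini-Hochberg adjusted p of 0.05, where 1.59% of all genes tested passed, so that a count of 0 is near the background. At an unadjusted p under 0.05 there were 2, CDK6 and E2F7, against 7.35% of all genes. With the dispersions of DESeq2 there were also 0 and 2, against 282 and 1174 of all 17046 genes. With a smooth length trend removed, 0 regulators had an unadjusted p under 0.05, against 1193 of all 17046 genes. CDK6 had the smallest adjusted p, at 0.18, and E2F7 an adjusted p of 0.55 in edgeR's test, and both were at 1.00 with the length trend removed.

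Deviations here are the log2 CPM of a library minus the mean of the other 2. All 3 deviations were below 0.5 in size for 38 of 49 regulators (77.6%), against 65% of all genes tested. The 11 others were CDK6, CDKN2A, CDKN2B, CDKN2D, RBL1, E2F7, E2F8, CCNE2, CCNB3, CKS2 and CDK5. In replicate 1 the median deviation was 0.01 over the regulators and -0.01 over all genes, so the set as a whole lay close to all genes there. Of the 49, 23 were highest in replicate 1, against 40.8% of all genes tested, and 16 were lowest there, against 41.1%.

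Within the set, the direction in replicate 1 followed transcript length. The deviation of replicate 1 and log2 length had a Pearson's r of -0.72 across the 49 regulators and of -0.41 across all genes tested, which share the same libraries and are not independent replicates. The 10 regulators with a mean length over 4000 bases had a median deviation of -0.36 in replicate 1, and 8 of them were lowest there. The 23 with a length under 2000 bases had a median of 0.21, and 17 of them were highest there. Over all genes these medians were -0.37 and 0.19. The length that RSEM subtracts for the fragment was also smaller in replicate 1, with a median of 216 bases against 253 and 259 in replicates 2 and 3.

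Removing a length trend changed the most deviant genes unequally. With a smooth trend on length removed in each library, the deviation of CDK6 in replicate 1 was -0.29, against -1.10 before, and that of RBL1 was -0.37, against -0.78. E2F7 moved to -0.46, against -0.85. CCNE2 kept -0.75, against -0.74, and CDK5 kept 0.66, against 0.83. CCND2, at 6273 bases the second longest, stood at 0.41, against -0.07 before. The lower CDK6, RBL1 and E2F7 levels of replicate 1 were thus measured together with a length trend, and its part in each gene was not tested further.

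**Figure D4:**
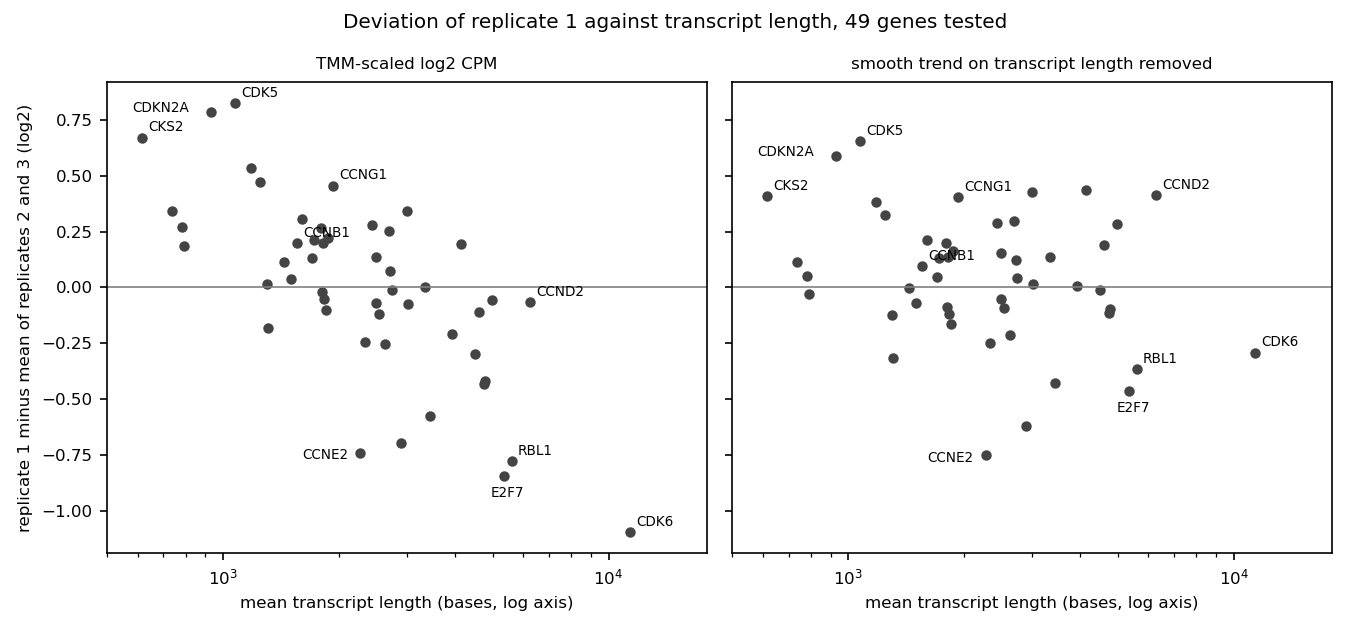
Deviation of replicate 1 from the mean of replicates 2 and 3, in log2 units, against mean transcript length in bases on a log axis for the 49 regulators tested, before (left) and after (right) a smooth length trend was removed. CDK6 lies at -1.10 on the left and at -0.29 on the right, while CCNE2 stays near -0.75 in both.

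Nearly all listed genes that act with these regulators were detected, against 62.2% of protein-coding genes. All 7 genes of the MuvB core, MYBL2 and FOXM1, which drive late cell cycle promoters, were detected, with RBBP4 at 481 ± 106, MYBL2 at 106 ± 5.15 and FOXM1 at 80.0 ± 10.6 TPM (SD, n = 3). So were all 17 subunits and partners of the anaphase-promoting complex, led by UBE2C at 299 ± 11.9 TPM, and all 5 SCF ligase genes, led by SKP1 at 462 ± 14.6 TPM. All 11 mitotic kinase and checkpoint genes were detected, with AURKB at 174 ± 9.41 and PLK1 at 122 ± 8.70 TPM, and all 11 origin licensing genes, with MCM7 at 349 ± 19.9 TPM. Of 24 other cyclin and CDK genes 23 were detected, led by CCNL2 at 323 ± 47.0 and CCNI at 205 ± 33.8 TPM, and CCNO at 0.51 ± 0.10 TPM was not. In edgeR's test of spread 0 of the 75 genes of these 6 lists passed, where 1.59% of all genes tested did, a count near the background. At an unadjusted p under 0.05 there were 0, against 7.35% of all genes tested. With the dispersions of DESeq2 there were 0, against 1174 of all 17046 genes, and with the length trend removed 1, against 1193.

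Promoters of the set were read for motifs that are known from cell cycle genes. They come from RefSeq (GRCh38.p14), cover 250 bases before to 50 after an annotated start, and were matched for 42 of the 50 genes. The RB1 window, at bases 48476200 to 48476499 of chromosome 13, lies far inside the gene, which starts at 48303751. It is therefore not the promoter at the gene's start, and its lack of motifs tells nothing about that promoter. The windows of CCND3, CCNA1 and CCNB3 also lie within their genes. The motifs were the cell cycle homology region (CHR, TTTGAA), the CCAAT box (CCAAT) and the E2F motif in the forms TTTGGCGC, TTTCGCGC and TTTCCCGC, each on both strands. A variant of the CHR, TTTAAA, was searched as well and is counted apart. Of 12 promoters of G2/M genes, 7 held a CHR (58.3%), against 12.1% of protein-coding promoters, and 6 held both a CHR and a CCAAT box (50%), against 5.02%. An E2F motif stood in 4 of 8 E2F and DP promoters, against 3.77% of protein-coding promoters. The other role groups held it in 1 of 6 G1/S promoters (CDC25A), 1 of 12 G2/M promoters (CDK1), 1 of 3 RB family promoters (RBL1) and none (0) of the 13 others, which makes 7 of 42 (16.7%) over all regulators. A CHR stood in 10 of the 42 (23.8%). Its variant TTTAAA also stood in 10 of the 42, against 9.70% of protein-coding promoters. This variant was not particular to G2/M genes, with 4 of 12 there and 3 of 5 among the other cyclins and CDKs of the set. A match is only a match of letters and no site shown to be bound.

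These 4 promoters are shown because the first pair belongs to abundant mitotic genes that hold CHR and CCAAT motifs and the second pair to E2F and RB family genes that hold E2F motifs. They run 5′ to 3′ on the gene's strand, and capitals mark the CHR, CCAAT and E2F motifs but not the CHR variant.
CCNB2 (chr15:59104896-59105195, plus strand): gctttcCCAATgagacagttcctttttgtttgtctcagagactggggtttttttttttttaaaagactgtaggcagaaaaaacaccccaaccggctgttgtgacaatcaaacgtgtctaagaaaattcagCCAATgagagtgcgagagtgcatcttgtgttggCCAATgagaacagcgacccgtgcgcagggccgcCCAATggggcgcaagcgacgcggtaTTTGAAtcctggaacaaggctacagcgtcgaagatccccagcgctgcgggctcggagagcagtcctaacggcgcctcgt
CDC20 (chr1:43358731-43359030, plus strand): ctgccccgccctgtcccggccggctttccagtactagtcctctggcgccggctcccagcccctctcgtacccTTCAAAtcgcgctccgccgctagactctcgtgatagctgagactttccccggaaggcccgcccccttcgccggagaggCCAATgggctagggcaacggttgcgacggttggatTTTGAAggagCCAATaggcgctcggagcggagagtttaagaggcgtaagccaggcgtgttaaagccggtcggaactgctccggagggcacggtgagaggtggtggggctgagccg
E2F1 (chr20:33686336-33686635, minus strand): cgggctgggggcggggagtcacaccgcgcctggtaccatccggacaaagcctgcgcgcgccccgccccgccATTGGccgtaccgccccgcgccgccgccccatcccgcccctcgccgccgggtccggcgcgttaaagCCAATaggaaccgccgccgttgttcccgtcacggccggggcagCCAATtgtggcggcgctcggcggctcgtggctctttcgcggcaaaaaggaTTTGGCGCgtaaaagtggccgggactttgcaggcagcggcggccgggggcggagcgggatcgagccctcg
RBL1 (chr20:37095948-37096247, minus strand): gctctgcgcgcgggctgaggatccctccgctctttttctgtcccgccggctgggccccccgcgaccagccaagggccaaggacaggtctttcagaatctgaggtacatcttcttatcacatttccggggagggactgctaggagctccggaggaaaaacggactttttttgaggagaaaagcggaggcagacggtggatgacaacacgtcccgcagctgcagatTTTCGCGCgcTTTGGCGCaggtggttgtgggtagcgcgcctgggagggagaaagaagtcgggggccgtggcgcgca

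In CCNB2 the last 3 CCAAT boxes start 33 bases apart, and a CHR follows them, 29 bases before the start. In CDC20 a CHR begins 65 bases before the start between 2 CCAAT boxes. E2F1 holds the E2F motif TTTGGCGC 20 bases before its start, with 3 CCAAT boxes further upstream. RBL1 holds 2 E2F motifs, TTTCGCGC and TTTGGCGC, at 26 and 16 bases before the start and no CHR or CCAAT box. At the level of RNA, CCNB2 and CDC20 stood at 119 ± 6.31 and 232 ± 17.5 TPM, and E2F1 and RBL1 at 36.2 ± 1.54 and 9.53 ± 3.19 TPM (SD, n = 3). Because CCNB2 and CDC20 were chosen as abundant genes, their higher level tells nothing about the motifs.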

How the data were processed

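Bulk RNA-seq of 3 wild-type pNPC replicates was used, 1 deposited RSEM gene table each. GRCh38, RSEM 1.3.1, STAR 2.7.11a and Trim Galore 0.6.10 are listed in the submitters' processing notes, without roles. The sources used here give no annotation release, strandedness or read layout. The deposited expected counts are the authors' estimates of reads per gene, not normalized. The authors' deposited TPM values are scaled for effective length and sum to the same total per library. The deposited FPKM values, scaled by the authors for length and reads, served in an alternative. Of the 50 regulators, 26 overlap a gene on the opposite strand and 15 have pseudogenes of their name in GENCODE 29, so their reads may be divided imperfectly; without strand, the 9 whose partners exceeded 25 TPM (CCNA2, CCNE2, CCNH, CDC25C, CDK2, CDK5, E2F5, FZR1 and PKMYT1) are the most exposed.

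Members, lists, pairs and motifs were chosen with earlier results of these data known. Differences within a library used log2(TPM + 1), a pseudocount of 1, with an exact sign-flip permutation test. Excess spread was tested in edgeR 4.0.16 (R 4.3.3) on rounded expected counts with TMM, filterByExpr, an intercept-only fit and the trended dispersion, adjusted by Benjamini-Hochberg over 17046 genes. CCNA1 did not pass filterByExpr. The common biological coefficient of variation was 22.6%. DESeq2 1.42.0 gave size factors and dispersions for alternatives. Log2 CPM for deviations used a prior count of 2. All 50 regulators could be named, and of each other list the 3 highest and up to 2 undetected genes. Gene types came from GENCODE 29, coordinates from RefSeq (GRCh38.p14), and figures from matplotlib 3.10.9. Python 3.11.15, pandas 2.3.3 and numpy 2.4.6 were used.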

Additional observations from a re-analysis of the deposited data

How the results depend on the processing

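No paired comparison of sample groups was possible because the labels give 1 group. The count of detected regulators, 48, was 49 at a TPM minimum of 0.5, 44 at a minimum of 5, 46 at an FPKM minimum of 1 and 48 in each set of 2 libraries. Of the 25 differences within a library, 4 changed sign without length scaling (CPM): CCNE1 with CCNE2 (-0.27), CDKN2A with CDKN2B (-0.012), E2F1 with E2F3 (-0.23) and WEE1 with PKMYT1 (0.92). CCNE1 with CCNE2 ran from -0.066 to 0.33 when 1 library was left out, and changed sign without replicate 1. The other changes of pseudocount, unit and replicate kept every sign. The 271 genes with excess spread became 95 to 117 when 1 library was left out, with fewer samples in the test, and 0 regulators were called under any of the alternatives run, DESeq2 size factors, no filter, common dispersion, DESeq2 dispersions and removal of the length trend included. At 2 to 143 counts per library, CCNA1, CCNB3, CDKN2A, CDKN2B and CDKN2C are limited by depth. The CDK4 to CDK6 ratio was more than 2 times higher in replicate 1 than in the others, and without replicate 1 the difference was 4.09 log2 units.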
